A study of Mus musculus with 30 samples.

Results

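Clonal variation was examined in the unedited cells of the J774A.1 experiment, by setting the 3 untreated libraries of clone WT1 against the 6 untreated libraries of clones WT2 and WT3. These 9 libraries were all the untreated wild-type (WT) libraries among the 30 RNA-seq libraries of the experiment. J774A.1 is a macrophage-like cell line of mouse. Each WT clone was grown from 1 cell without electroporation, and each clone gave 3 untreated (UT) libraries and 3 libraries after 100 ng/mL interferon gamma (IFNG) for 4 h. The 2 knockout clones, KO1 and KO2, carry a homozygous CRISPR deletion of the mobile element B2_Mm2.Dicer1 inside Dicer1 and are used below for reference values only. All libraries were made from polyadenylated RNA. With 1 clone on 1 side and 2 clones on the other, p-values measured the spread between libraries. In the main comparison that spread includes the difference between WT2 and WT3, which were fitted as 1 group. Nothing in the labels says that the 3 libraries of a clone came from separate cultures.

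WT1 libraries held 25750421 to 29000473 counted fragments, WT2 libraries 15566122 to 23275996 and WT3 libraries 17579074 to 27490220. No pair of libraries of a clone matched within sampling noise, since the chi-square of their counts divided by its degrees of freedom was 1.90 to 18.96 over 18 pairs. The numbers in the column names run from 7 to 12 for WT1 and from 25 to 36 for WT2 and WT3, and 13 to 24 are the KO clones. The names also differ in form, with wt1 for WT1 but wtc1 for WT2 and wtc3 for WT3. What the numbers and the added letter mark is not given. Any handling shared by the libraries of 1 clone and the clone itself thus cannot be told apart.

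A macrophage line is recognised by genes such as Csf1r, the receptor for the growth factor that macrophages depend on, Spi1, the transcription factor PU.1 that sets up the myeloid programme, and the surface and lysosomal proteins F4/80 (Adgre1), CD11b (Itgam), CD14 and CD68. Cells of a long-cultured tumour line can differ in chromosome content and in the epigenetic state of single genes. A clone starts from the state of the cell it was grown from. Neither chromosome content nor epigenetic state was measured in these libraries.

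Levels are given as CPM, the count of a gene per 1e+06 counted fragments, scaled by TMM factors that allow for differences in library composition. Each log2 fold change (log2FC) is WT1 relative to WT2 and WT3 unless another pair is named. Of 13971 genes tested with edgeR's quasi-likelihood test, 7344 passed an FDR of 0.05 after Benjamini-Hochberg adjustment, which is 52.6%. They divided into 3684 genes higher in WT1 (26.4%) and 3660 lower (26.2%). Most differences were small, with a median absolute log2FC of 0.35 among the called genes, and 856 genes (6.13%) were called with at least a 2-fold difference, 605 higher and 251 lower. The 3 WT1 libraries lay outside the range of the 6 others for 6542 genes (46.8%). When counts were added up within a clone, so that 1 value faced 2, the number called was 3118.

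WT1 was the clone that stood apart. Against WT2 alone it differed in 7206 of 13863 genes (52%), 914 of them by at least 2-fold (6.59%). Against WT3 alone it differed in 7117 of 14021 genes (50.8%), 962 of them by at least 2-fold (6.86%). Both of these comparisons use the same WT1 libraries. Between WT2 and WT3, with the same number of libraries, 2290 of 13310 genes were called (17.2%) and 158 by at least 2-fold (1.19%).

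**Figure D1:**
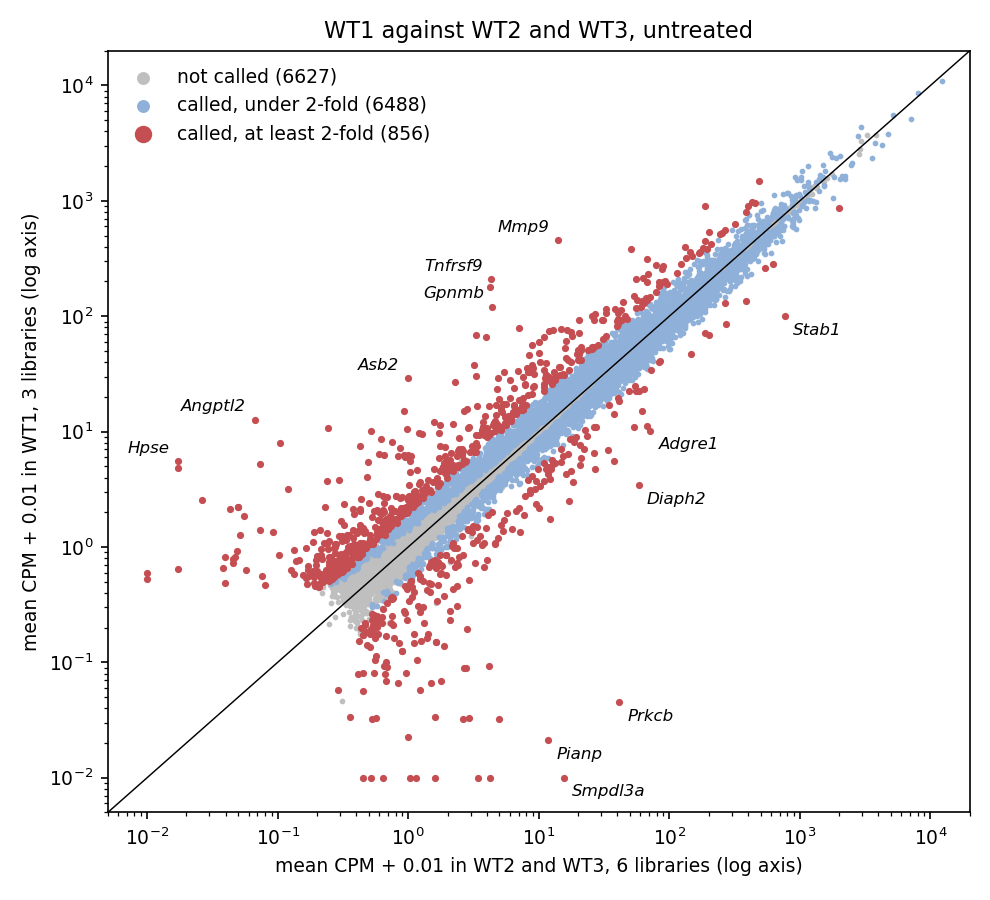
Mean CPM of each tested gene in WT1 (vertical, 3 libraries) against its mean in WT2 and WT3 (horizontal, 6 libraries), both on log axes after adding 0.01 CPM; the diagonal marks equal levels. Red points are the 856 genes called with at least a 2-fold difference, blue points the other called genes and grey points genes not called, with Prkcb, Pianp and Smpdl3a far below the diagonal and Hpse and Angptl2 far above it.

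A small set of genes was expressed on 1 side and close to absent on the other, with a mean of at least 5 CPM on 1 side and less than 0.1 CPM in every library of the other. There were 4 such genes. Prkcb, Smpdl3a and Pianp were off in WT1, and Hpse was off in WT2 and WT3. Their promoter windows are shown because these genes carry the sharpest difference between the clones, for those with an entry among the RefSeq promoters used here (build GRCm38.p6, 250 bases before the transcript start and 50 after, 5′ to 3′). Capitals mark CG dinucleotides, the sites of DNA methylation in mammals.
Prkcb, chr7:122288875-122289174, plus strand: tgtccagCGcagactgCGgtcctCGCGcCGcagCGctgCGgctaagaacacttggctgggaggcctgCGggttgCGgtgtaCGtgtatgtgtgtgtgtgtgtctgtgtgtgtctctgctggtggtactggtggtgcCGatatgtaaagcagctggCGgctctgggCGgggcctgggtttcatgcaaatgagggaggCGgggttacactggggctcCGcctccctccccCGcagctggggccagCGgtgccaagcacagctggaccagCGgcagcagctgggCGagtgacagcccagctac
Pianp, chr6:124996470-124996769, plus strand: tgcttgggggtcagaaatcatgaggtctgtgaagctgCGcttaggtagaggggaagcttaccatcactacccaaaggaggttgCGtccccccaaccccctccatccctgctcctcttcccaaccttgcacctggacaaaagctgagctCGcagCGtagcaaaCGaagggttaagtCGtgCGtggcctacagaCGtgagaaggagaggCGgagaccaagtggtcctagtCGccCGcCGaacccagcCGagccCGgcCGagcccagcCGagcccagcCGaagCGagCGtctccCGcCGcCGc
Hpse, chr5:100719667-100719966, minus strand: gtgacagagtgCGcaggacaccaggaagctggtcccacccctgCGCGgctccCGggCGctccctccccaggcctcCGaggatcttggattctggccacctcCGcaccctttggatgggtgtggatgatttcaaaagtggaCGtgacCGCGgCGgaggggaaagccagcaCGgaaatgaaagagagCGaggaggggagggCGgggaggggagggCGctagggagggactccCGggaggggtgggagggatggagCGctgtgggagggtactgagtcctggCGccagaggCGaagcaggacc

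The Prkcb window held 19 CG dinucleotides, the Pianp window 22 and the Hpse window 19, counted as the letters CG, which read the same on both strands. Over 32851 promoter windows of the same length the median was 7, with quartiles of 3 and 20. Windows with at least 19 made up 28.1% and those with at least 22 made up 23.1%. All 3 printed windows were thus near or above the upper quartile. Pianp has further listed starts, 1743 and 1916 bases inside its gene model. Their windows, not printed, held 6 CG dinucleotides each, below the median. The Prkcb window belongs to a transcript that starts 374 bases inside the gene model of the deposited counts, so it is 1 of the starts of that gene and not the outermost. Smpdl3a is named without a sequence. Methylation was not measured in these libraries.

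Prkcb (chr7:122288751-122634402) encodes protein kinase C beta, a signalling kinase of blood cells. It was at 0.0379, 0.0335 and 0.0339 CPM in the WT1 libraries, or 3 counts in all. In WT2 it was at 41.9, 41.0 and 43.8 CPM and in WT3 at 40.2, 40.2 and 40.6 CPM, so that WT2 and WT3 were close and WT1 was far below both. The ratio of pooled CPM was 1175, with a 95% interval of 402 to 5697 from counting error only. The log2FC was -9.99 (edgeR adjusted p-value = 1.9e-15), and its precision is limited by the 3 counts in WT1. After IFNG the mean was 0 CPM in WT1, 39.6 in WT2 and 41.1 in WT3. KO1 and KO2 were also low, at 0.77 and 0.91 CPM untreated.

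Smpdl3a (chr10:57794335-57811830) encodes a secreted phosphodiesterase related to acid sphingomyelinase. No fragment was counted in any untreated WT1 library. The level was 22, 23.9 and 20.5 CPM in WT2 and 8.49, 8.48 and 9.44 CPM in WT3. With a floor of 3 counts over the 3 WT1 libraries, Smpdl3a was at least 428-fold lower in WT1. It also differed between WT2 and WT3, with a log2FC of 1.35 (adjusted p-value = 2.5e-09 by edgeR). KO1 and KO2 expressed it at 28.9 and 11.7 CPM, so that the loss was seen in WT1 but in neither KO clone.

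Pianp (chr6:124996694-125003096) encodes a membrane protein that binds the inhibitory receptor PILR alpha. It had 1 count in the 3 WT1 libraries, in the library at 0.0335 CPM, and no count in the other two. In WT2 the level was 16.4, 15.9 and 14.7 CPM and in WT3 it was 7.32, 6.77 and 10.1 CPM. The ratio of pooled CPM was 983, with a 95% counting interval of 176 to 38814. KO1 and KO2 were at 22.4 and 23.2 CPM.

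Hpse (chr5:100679484-100719716) encodes heparanase, the enzyme that cuts the heparan sulfate chains of the extracellular matrix. It was at 6.52, 5.25 and 4.92 CPM in WT1. In the 6 other libraries 1 fragment was counted in all, in a WT3 library at 0.0428 CPM. The ratio of pooled CPM was 709.5, with a 95% counting interval of 127 to 28025. KO1 was at 0.31 CPM and KO2 at 1.41 CPM. All 4 switched genes kept their side after IFNG, Hpse with a mean of 6.38 CPM in WT1 against 0 in WT2 and 0.052 in WT3.

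The other genes with the largest positive log2FC are given next. Tnfrsf9, the costimulatory receptor 4-1BB, was at 238, 179.9 and 213 CPM in WT1 and between 1.97 and 6.85 CPM in the 6 other libraries (log2FC 5.69). Mmp9, the gelatinase that degrades denatured collagen, was at 504, 418 and 449 CPM against 10.0 to 18.7 CPM (log2FC 5.04). Both stood far outside the range of the other clones. Ccnd2, the D-type cyclin that drives entry into the cell cycle, was at 174, 184 and 181 CPM in WT1. Its level was 1.70 ± 0.299 CPM in WT2 and 6.80 ± 0.407 CPM in WT3 (SD, n = 3 each), and the log2FC of WT1 was 6.71 against WT2 and 4.72 against WT3. Gpnmb, a glycoprotein of lipid-laden and lysosome-rich macrophages, was at 115, 124 and 124 CPM against 2.32 to 7.39 CPM (log2FC 4.80). Gpnmb was likewise high in KO1 (80.7 CPM) and low in KO2 (4.75 CPM), so that its level divided the KO clones as well.

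Ptgs2, the inducible cyclooxygenase of prostaglandin synthesis, was at 91.9, 57.7 and 57.6 CPM in WT1 and 1.84 to 5.66 CPM in the others (log2FC 4.46). Angptl2, a secreted angiopoietin-like protein, was at 12.8, 11.8 and 13.4 CPM, with at most 0.252 CPM elsewhere (log2FC 7.94). Asb2, which selects substrates for a ubiquitin ligase, averaged 29.2 CPM against 0.979 CPM (log2FC 4.90). Others of this group were Depp1, Slco2b1 and Ptpn14, with log2FC of 6.24, 6.13 and 5.59, and all 3 had means under 1 CPM in WT2 and WT3. Every one of the 12 genes with the largest rise had an edgeR adjusted p-value of at most 9.9e-09.

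Among the genes with the largest negative log2FC, after the 3 that were off, were surface receptors. Stab1, a scavenger receptor of alternatively activated macrophages, was at 96.3, 97.0 and 106 CPM in WT1. It was at 675, 653 and 622 CPM in WT2 and at 914, 891 and 860.0 CPM in WT3 (log2FC -2.94, standard error 0.13, edgeR adjusted p-value = 7e-10). KO1 and KO2, at 76.9 and 92.2 CPM, were near WT1. Lilra5, an activating leukocyte receptor, averaged 11.1 CPM against 66.8 CPM (log2FC -2.58). Diaph2, an X-linked formin that assembles actin filaments, was at 3.33, 3.75 and 3.22 CPM against 41.2 to 74.0 CPM (log2FC -4.07). The connexin gene Gja1 (log2FC -2.76), the NAD synthesis gene Qprt (-2.49), the ubiquitin ligase gene Neurl3 (-2.77) and the zinc finger gene Zfp704 (-2.78) were also in the group, each with all 3 WT1 libraries below the 6 others.

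Adgre1 (chr17:57358686-57483529), which encodes F4/80, the surface antigen most used to identify mouse macrophages, was at 9.66, 9.27 and 11.6 CPM in WT1. It was at 108, 99.2 and 95.3 CPM in WT2 and at 46.1, 40.9 and 39.8 CPM in WT3, so that the 3 clones held 3 separate levels without overlap. The log2FC of WT1 was -2.79 (SE 0.37, edgeR adjusted p-value = 2.1e-05). It was -3.30 against WT2 alone and -2.05 against WT3 alone, and WT2 exceeded WT3 by 1.25 (edgeR adjusted p-value = 5.4e-11). After IFNG the means were 9.88, 89.6 and 46.3 CPM, and the log2FC was again -2.79. The untreated KO clones were above every WT clone, with means of 249 and 283 CPM.

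Efr3b (chr12:3962554-4038915) differed in the opposite direction. It encodes a membrane anchor of the complex that brings phosphatidylinositol 4-kinase to the plasma membrane. WT1 libraries were at 44.0, 46.3 and 47.1 CPM, WT2 at 8.96, 7.97 and 9.24 CPM and WT3 at 8.13, 8.31 and 8.11 CPM. WT2 and WT3 overlapped and did not differ past the threshold (log2FC 0.08, adjusted p-value = 0.60), while WT1 was higher with a log2FC of 2.46 (SE 0.05, edgeR adjusted p-value = 1.4e-12). KO1 and KO2, at 18.8 and 15.2 CPM, were between. Of the 8 tested genes of the kinase complex, 3 were higher and 3 lower. Ttc7b was higher with a log2FC of 0.62, and Efr3a (-0.25) and Ttc7 (-0.24) were lower, with the call of Ttc7 lost when counts were summed per clone (edgeR adjusted p-value = 0.060).

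**Figure D2:**
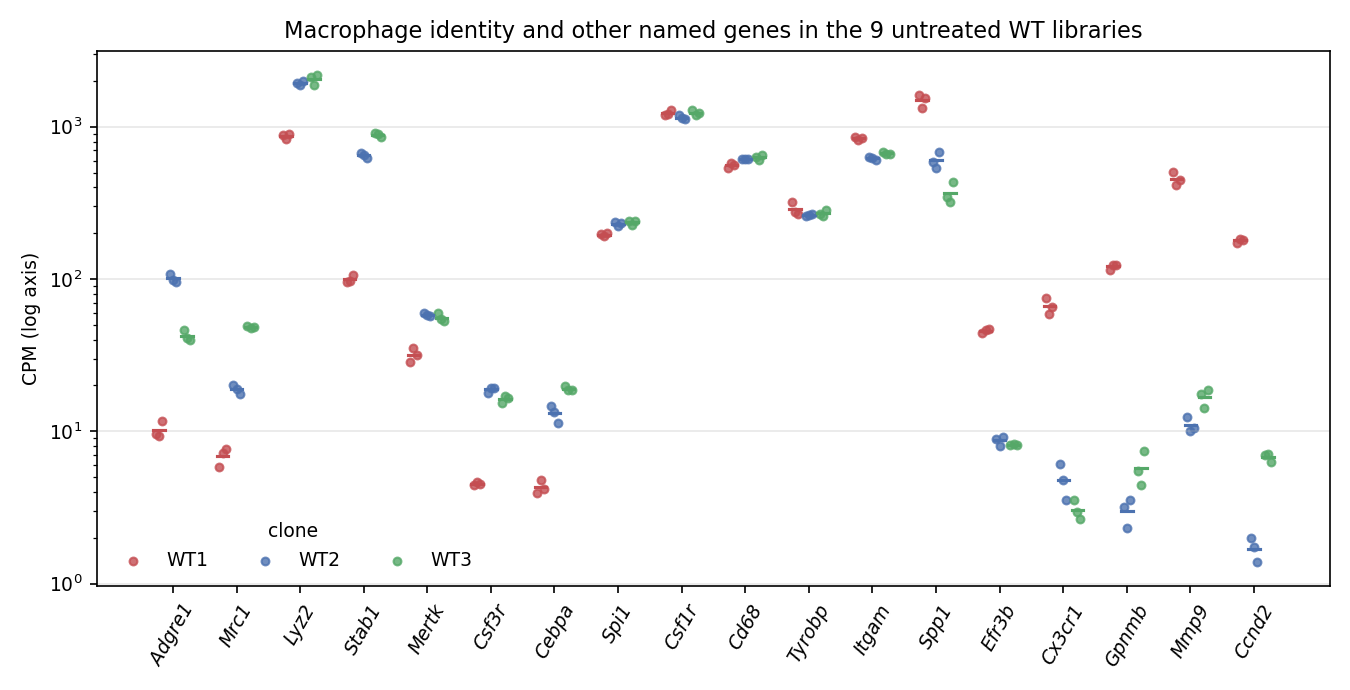
CPM (log axis) of 18 macrophage identity genes and other named genes in the 9 untreated WT libraries; each point is 1 library, coloured by clone, and each short bar is the mean of 3 libraries. WT1 is apart from both other clones for Adgre1, Stab1, Efr3b, Cx3cr1, Gpnmb, Mmp9 and Ccnd2, while the points of the clones overlap for Csf1r and Tyrobp.

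The core of the macrophage programme was present in all 3 clones. Csf1r was at 1194, 1220 and 1284 CPM in WT1 and between 1117 and 1283 CPM in the 6 others, with a log2FC of 0.06 that did not pass the threshold (adjusted p-value = 0.31 by edgeR). The signalling adaptor gene Tyrobp had a log2FC of 0.11 and did not pass either (edgeR adjusted p-value = 0.074). Spi1 was at 196, 192 and 199 CPM against 222 to 242 CPM (log2FC -0.24), a small difference with no overlap. Cd68 (-0.15), Mpeg1 (-0.19), Cd14 (0.16) and Itgam (0.39) were also called with small changes, of which those of Cd68, Mpeg1 and Cd14 were lost with counts summed per clone (edgeR adjusted p-values of 0.18, 0.13 and 0.26). Lysozyme 2 (Lyz2), whose counts can be shared with the close copy Lyz1, was at 886, 826 and 891 CPM in WT1 against 1867 to 2183 CPM (log2FC -1.19).

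Of 58 tested surface and lineage genes, 21 were higher and 27 lower in WT1, and 10 were not called. Their median log2FC of -0.06 was close to the 0.01 over all genes tested, but 82.8% were called. Over the genes of all lists together, 664 of 929 were called. By at least 2-fold, 7 surface and lineage genes were higher and 9 lower, with the lowest log2FC at -6.53. Cx3cr1, the fractalkine receptor of monocytes and resident macrophages, was at 75.3, 59.0 and 65.3 CPM in WT1 and 2.67 to 6.09 CPM in the others (log2FC 4.09). Csf3r, the receptor for granulocyte colony-stimulating factor, averaged 4.53 CPM against 17.6 CPM (log2FC -1.94). Mrc1, the mannose receptor, which is outside the selection rule for named genes and was picked after its values were seen, averaged 6.90 CPM in WT1, 18.9 in WT2 and 48.3 in WT3. Its log2FC of -2.28 had an edgeR adjusted p-value of 0.00017.

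Among 20 tested Fc and scavenger receptor genes, 4 were higher and 13 lower, with a median log2FC of -0.19. Beside Stab1, the lower ones included Mertk, the kinase receptor for dying cells (-0.83), Fcgr1, the high-affinity IgG receptor (-0.66), and Scarb1, the receptor for high-density lipoprotein (-0.63). Among integrins and adhesion genes 18 of 33 were higher and 6 lower. The named lower members were Itgav (-1.36), Itga4 (-1.02) and Cd44 (-0.73), and the heparan sulfate proteoglycan gene Sdc3 was higher (1.19).

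Of 56 tested transcription factor genes of macrophages, 26 were higher and 17 lower, with a median log2FC of 0.13. Runx3 was at 24.3, 23.8 and 23.2 CPM in WT1 against 4.97 to 8.16 CPM (log2FC 1.88). The stress- and cytokine-induced factors Bhlhe40 (1.37) and Atf3 (1.14) and the inhibitor of E proteins Id2 (0.65) were higher too. Some members outside the selection rule were picked after their values were seen. Egr1, an immediate early gene, was at 40.9, 32.3 and 25.1 CPM against 2.64 to 10.5 CPM (log2FC 2.53), and Irf8 was higher by 0.64. Cebpa, the factor C/EBP alpha of early myeloid cells, was at 3.94, 4.79 and 4.17 CPM against 11.4 to 20 CPM (log2FC -1.90).

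Inflammatory mediators were higher in WT1 more often than lower. Of 36 tested cytokine and chemokine genes 19 were higher and 7 lower, with a median log2FC of 0.25. Il15 was at 34.5, 26.7 and 25.8 CPM against 9.74 to 12.2 CPM (log2FC 1.38). Pdgfb (1.10), Ccl3 (0.72) and Mif (0.54) were higher. Tnf (chr17:35199381-35202007) was at 105, 88.3 and 76.3 CPM against 49.3 to 66.5 CPM (log2FC 0.65, edgeR adjusted p-value = 6.5e-05). Among 38 tested cytokine and chemokine receptor genes 17 were higher and 15 lower. Il1r2, the decoy receptor for interleukin 1, averaged 14.9 CPM against 0.924 CPM (log2FC 4.04), and Il10ra was higher by 1.10. Pattern recognition receptors and adaptors were balanced, with 12 of 39 higher and 15 lower. The named ones were Nod2 (1.48), Irak2 (1.05), Ticam1 (0.84) and Tmem173 (0.60).

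Of 22 tested genes of the phagocyte oxidase, nitric oxide and arginine list, 13 were higher and 3 lower (median log2FC 0.27). Nos2, the inducible nitric oxide synthase, was at 3.71, 3.11 and 2.75 CPM in untreated WT1 and at most 0.189 CPM in the others (log2FC 4.81). After IFNG it averaged 45.3 CPM in WT1, 1.94 in WT2 and 1.01 in WT3. Acod1, which makes itaconate, was at 9.51, 6.63 and 9.50 CPM against 0.365 to 0.943 CPM (log2FC 3.80). Ass1, which regenerates the substrate of Nos2, averaged 39.9 CPM against 10.2 CPM (log2FC 1.98).

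Interferon-stimulated genes depended on the clone used as reference. Of 60 tested, 13 were higher and 24 lower in WT1 (median log2FC -0.15). Against WT2 alone 9 were higher and 34 lower, with a median of -0.25, and against WT3 alone 21 were higher and 15 lower, with a median of 0.02. Between WT2 and WT3, 33 of 55 were higher in WT2 and the other 22 were not called, where 9.02% of all genes tested were higher and 8.19% lower. The most significant members were Zbp1, a sensor of Z-form nucleic acid, at 1.29, 1.27 and 1.26 CPM against at most 0.0629 CPM (log2FC 4.86), Helz2 (0.76), Bst2 (0.62) and Rtp4 (-2.02).

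Genes of MHC class I presentation were higher as a group, with 22 of 30 higher, 4 lower and a median log2FC of 0.50. The counts divide by chromosome. On chromosome 17, where the MHC lies, 18 of the 20 members were higher, and off it 4 of 10 were higher and 3 lower, with a median of 0.12. Over all tested genes of chromosome 17, 59.4% were higher and 8.87% lower. Off chromosome 17, 24.6% of all tested genes were higher and 27.1% lower. H2-K1, a class I heavy chain, was at 216, 196 and 194 CPM against 139 to 153 CPM (log2FC 0.48), with the limit that class I genes share sequence and counts may be divided between copies. The immunoproteasome gene Psmb8 (0.66), the peptide transporter gene Tap2 (0.58) and Tapbp (0.51) are on chromosome 17, and B2m, the class I light chain (0.56), is on chromosome 2. In the class II list 9 of 14 were higher and 4 lower. By at least 2-fold, 3 were higher and 3 lower, with the lowest log2FC at -6.48. Cd74, the invariant chain, was at 418, 373 and 412 CPM against 117 to 141 CPM (log2FC 1.62). Cd40 rose by 1.98. The regulatory chains differed in opposite directions, with H2-Oa higher (1.78) and H2-Ob lower (-2.35).

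Genes of glycolysis differed without exception. All 26 were tested and all 26 were called, 21 higher and 5 lower, with a median log2FC of 0.64. Hk2, the first enzyme of the pathway, was at 154, 147 and 148 CPM against 50.3 to 57.3 CPM (log2FC 1.5). The neuronal enolase Eno2 was at 83.9, 73.2 and 77.8 CPM against 5.10 to 9.05 CPM (log2FC 3.51). The glucose transporter gene Slc2a1 (1.78) and the phosphofructokinase gene Pfkp (1.26) were higher as well. Ldhb, the lactate dehydrogenase subunit of oxidative tissues, picked after its values were seen, had no fragment in the WT1 libraries and was at 1.11 to 2.36 CPM in the others.

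In the hypoxia response list all 22 tested genes were called, 16 higher and 6 lower, with a median log2FC of 0.69. Ndrg1 was at 413, 371 and 367 CPM against 41.0 to 69.8 CPM (log2FC 2.92). Ddit4, an inhibitor of mTORC1, averaged 30.1 CPM against 3.30 CPM (log2FC 3.20), and Egln1, an oxygen-sensing hydroxylase, rose by 1.16. By at least 2-fold, 7 members were higher and 2 lower, with the lowest log2FC at -2.51. The hypoxia list and the glycolysis list both hold Slc2a1. Against WT2 the median was 0.76 for hypoxia and 0.64 for glycolysis, and against WT3 it was 0.68 and 0.61. Between WT2 and WT3 the medians were -0.02 and 0.06.

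Oxidative phosphorylation showed little, with 18 of 75 nuclear genes higher and 10 lower (median 0.05), so that 37.3% were called against 52.6% of all genes. Of the 13 protein genes of the mitochondrial genome 8 were lower and the other 5 were not called, with a median log2FC of -0.32. After IFNG 2 of these 13 were higher and 6 lower, with a median of -0.24. Untreated, mt-Nd4 was at 1479, 1637 and 1492 CPM against 2167 to 2269 CPM (log2FC -0.52). Cytosolic ribosomal protein genes were higher in 72 of 80 cases and not called in the other 8, with a median of 0.27. The size varied between WT1 libraries, whose medians ranged from 0.16 to 0.39. For 49 of the 80 genes all WT1 libraries were above the 6 others. With each WT1 library left out in turn, the median was 0.19 to 0.31. Between WT2 and WT3, 59 of these 80 were higher in WT2. Many ribosomal protein genes have near-identical copies elsewhere, so single members are uncertain. Exon length moved with the differences. In the fifth of tested genes with the shortest exonic length 25.5% were higher and 9.84% lower, with a median log2FC of 0.13. In the fifth with the longest, 25.8% were higher and 34.1% lower, with a median of -0.03. The median exonic length of the ribosomal protein genes was 1754.5 bases, inside the second of the 5 groups, and the part of length and of RNA quality in these lists was not tested.

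DNA replication and mitosis genes were lower more often, with 36 of 67 lower and 4 higher (median log2FC -0.13). Bub1b, a spindle checkpoint kinase, was at 136, 144 and 136 CPM against 194 to 201 CPM (log2FC -0.50), and Nusap1 (-0.64), Aurka (-0.42) and Ect2 (-0.40) were lower. Cell cycle regulators and oncogenes were divided, with 17 of 44 higher and 12 lower. Beside Ccnd2 the named members were the kinase genes Pim1 (1.83) and Pim3 (1.01) and the inhibitor gene Cdkn1a (0.58). Among p53 target genes 13 of 30 were higher and 12 lower, with Phlda3 (-1.64) and Aen (-0.87) lower and Sesn2 (0.73) higher.

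Lysosomal genes were lower in 24 of 45 cases and higher in 10 (median log2FC -0.23). The acid phosphatase gene Acp2 (-0.78), the acid lipase gene Lipa (-0.58) and Sgsh (-0.86) were lower. Cholesterol synthesis and uptake genes were lower in 19 of 32 cases and higher in 4 (median -0.20). Nr1h3, the sterol-sensing receptor LXR alpha, was at 0.227, 0.301 and 0.272 CPM against 1.5 to 2.6 CPM (log2FC -2.90). Dhcr7 (-0.53) was lower, and Sqle (0.41) and Abcg1 (0.62) were higher.

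In the amino acid and ER stress list 15 of 31 were higher and 7 lower, and in the heat shock and metallothionein list 2 of 18 were higher and 6 lower. NRF2 antioxidant genes were higher in 7 of 23 cases and lower in 5, with Gclm, a subunit of the enzyme that starts glutathione synthesis, at 49.8, 52.5 and 52.8 CPM against 99.5 to 105 CPM (log2FC -0.96). DNA methylation and chromatin genes were higher in 12 of 31 cases and lower in 10, with Kdm5b (1.44), Hdac5 (0.77) and Dnmt3a (0.59) higher and Ezh2 (-0.30) lower. Imprinted genes were higher in 5 of 14 cases and lower in 3. The share called in a list is to be read against the 52.6% called over all genes. It is also to be read against the genes of all lists together, of which 664 of 929 were called. List genes were thus called more often than genes at large, and why was not tested.

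**Figure D3:**
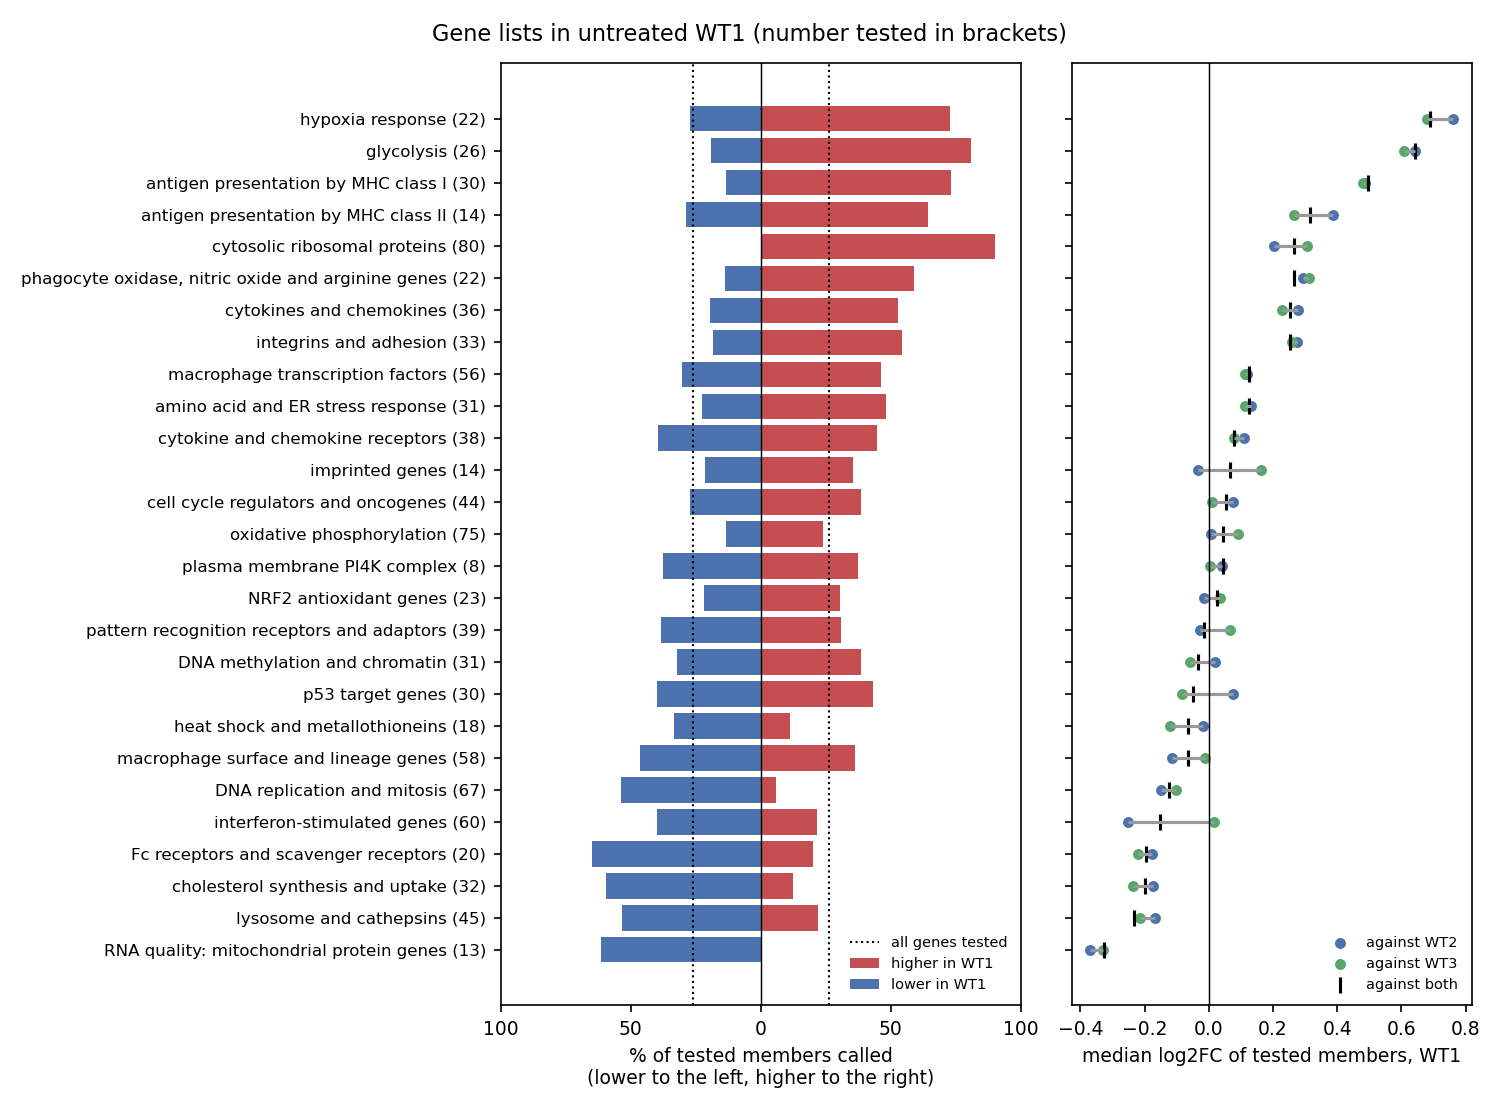
Left, percent of tested members called higher (red) or lower (blue) in untreated WT1 for each list with at least 8 tested genes, with dotted lines at the shares over all genes tested (26.4% and 26.2%). Right, the median log2FC of each list against WT2, against WT3 and against both, with glycolysis at 0.64 and hypoxia at 0.69 against both and interferon-stimulated genes on different sides of 0 against WT2 and WT3.

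Some markers of other cell types were well expressed in these macrophage lines and others had no count. Of 16 T and NK cell markers only Lck and Cd5 passed the filter on low counts, and Cd3e and Trbc1 had no count in the 9 libraries. Cd5, an inhibitory receptor of T and B cells, was at 40.9, 30.7 and 41.8 CPM in WT1 against 1.39 to 5.42 CPM (log2FC 3.64). The summed level of the list was 34.2 to 45.9 CPM in WT1, 7.17 to 8.85 CPM in WT2 and 4.54 to 4.65 CPM in WT3, most of it in WT1 from Cd5. In the B cell list Pax5 had no count, and Ighm, the only member tested, had a log2FC of -0.26, a call that was lost when counts were summed per clone (edgeR adjusted p-value = 0.16).

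Osteoclasts are made by fusion of macrophage precursors, and 5 of 12 osteoclast markers were tested, 4 higher and 1 lower. Dcstamp, needed for that fusion, was at 6.86, 5.76 and 5.74 CPM against 0.391 to 1.82 CPM (log2FC 2.80), and Car2 (1.59) and Mmp9 were higher while Tnfrsf11a, the receptor RANK, was lower (-0.44). The defining markers Acp5 and Calcr had no count, and Ctsk had 6 counts in WT1 and 12 in the 6 others. The summed level of the list, most of it in WT1 from Mmp9, was 648 to 747 CPM in WT1, 186 to 199 CPM in WT2 and 194 to 209 CPM in WT3. Of 16 markers of neutrophils and myeloid precursors 5 were tested, 2 higher (Mmp9 and Mmp8) and 1 lower (Csf3r), while Ctsg and S100a9 had no count. The summed level was 451 to 540.2 CPM in WT1 against 55.7 to 61.2 CPM, and Mmp9 again made up most of it in WT1.

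All 3 tested markers of dendritic cells were higher, namely Zbtb46 (1.12), Batf3 (0.96) and Bst2, which is also an interferon-stimulated gene, while Flt3 had no count. Of 4 tested endothelial markers 3 were higher (Vwf, Egfl7 and Pecam1), all with means under 5 CPM and with calls that were lost when counts were summed per clone (edgeR adjusted p-values of 0.052, 0.065 and 0.17). Pdgfra (1.68) was the only fibroblast marker tested, with 7 counts of Col1a1 in WT1 and 10 in the 6 others. The mast cell list had 1 tested member, Il1rl1, which was lower (-0.21), again a call lost with counts summed per clone (edgeR adjusted p-value = 0.11). The erythroid and megakaryocyte list had 3, Ppbp (0.43), Gp1bb (0.17) and Pf4 (0.01), none of which passed, and its summed level, nearly all from Pf4, was 261 to 298 CPM in WT1, 219 to 249 CPM in WT2 and 305 to 352 CPM in WT3. No epithelial marker reached the filter. The part of other cell types in the differences was not tested.

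Dicer1, the gene that holds the element deleted in the KO clones, was not edited in any WT clone. It was at 96.8, 110.3 and 108 CPM in WT1 against 120.4 to 130.2 CPM in WT2 and WT3, with a log2FC of -0.25 (SE 0.04, edgeR adjusted p-value = 0.00038, and 0.0502 with counts summed per clone). The 2 groups did not overlap.

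Chromosome 17 was examined with earlier results of these data known, so no p-value was computed for its shift. Among the 20 chromosomes with at least 100 tested genes, chromosome 17 had the largest shift of its genes as a set. Of its 699 tested genes 415 were higher in WT1 (59.4%) and 62 lower (8.87%), with a median log2FC of 0.26. On the 19 other chromosomes with at least 100 genes, the share of higher genes ranged from 17.9% to 33.3%. To compare whole chromosomes, the mean log2(CPM + 0.5) of each gene in WT1 was set against the mean of WT2 and WT3, the median over all 12260 genes with at least 1 CPM was subtracted, and the median over the genes of a chromosome was taken as its shift. The shift of chromosome 17 was 0.25 over 618 genes, a ratio of 1.19, and 508 genes were above 0. The shifts of the 19 other chromosomes ranged from -0.067 to 0.037. The mitochondrial genome, with 24 such genes, had a shift of -0.21, with 6 genes above 0. After IFNG its shift was -0.10, with 10 genes above 0. The WT1 libraries then ranged from -0.189 to 0.034, and overlapped those of WT2 (-0.049 to 0.111) and WT3 (-0.033 to 0.060).

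The shift was found in every WT1 library. The 3 untreated WT1 libraries ranged from 0.236 to 0.254 and the 3 IFNG-treated ones from 0.247 to 0.258, while the 12 libraries of WT2 and WT3, each against the other WT clones, ranged from -0.145 to -0.090. The groups did not overlap, but WT1 is part of the reference for the WT2 and WT3 libraries. Their negative values thus mirror the shift of WT1 and are not a separate reading of WT2 and WT3. WT1 exceeded WT2 by 0.25 and WT3 by 0.24, and WT2 differed from WT3 by -0.014. Both KO clones were on the side of WT1, with shifts of 0.29 each against the mean of WT2 and WT3. These shifts share their reference clones, so that a value set by WT2 and WT3 would appear in all 3.

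**Figure D4:**
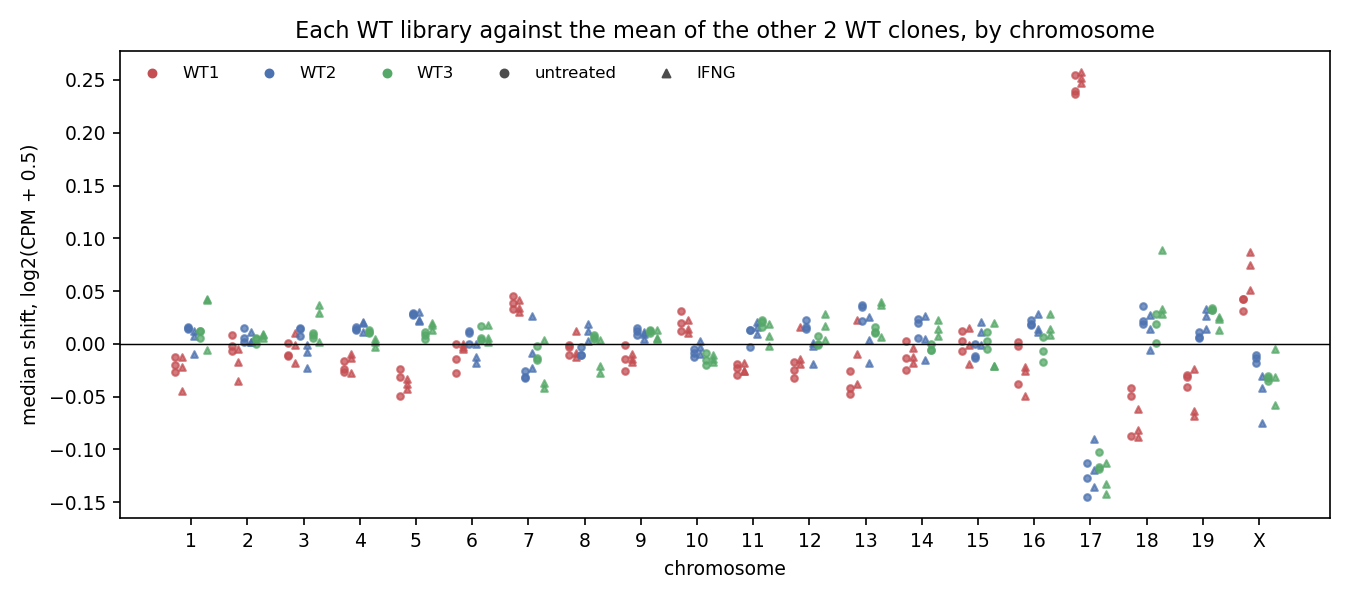
Median shift of log2(CPM + 0.5) for each chromosome (horizontal) in each of the 18 WT libraries against the mean of the other WT clones, coloured by clone, with circles for untreated and triangles for IFNG-treated libraries. WT1 is part of the reference for the WT2 and WT3 libraries, so their values mirror its shift. On chromosome 17 the WT1 libraries sit between 0.236 and 0.258 and the WT2 and WT3 libraries between -0.145 and -0.090, and on the 19 other chromosomes drawn (1 to 19 and X) the libraries sit between -0.088 and 0.089.

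Along the chromosome the shift was positive in the first 8 stretches of 10 Mb, from 0.072 in the seventh (18 genes) to 0.36 in the fourth (157 genes), where the MHC lies. It was -0.083 in the ninth (36 genes) and -0.37 in the tenth (5 genes). With the boundary set at 80 Mb after these values were seen, the 577 genes before it had a shift of 0.27, with 491 above 0, and the 41 genes after it had -0.15, with 17 above 0. After IFNG the same sets had 0.26 and -0.075. In KO1 and KO2 the genes before 80 Mb were shifted by 0.29 and 0.29, and the genes after it by 0.21 and 0.20. Within this last part the clones were not apart throughout. The 13 genes that start between 80 and 84 Mb were above 0 in WT1 as well, at 0.077, and the 5 genes of the tenth stretch were below 0 in KO1 (-0.22) and KO2 (-0.16) too. Without the genes of the MHC lists the shift of the whole chromosome was 0.24. The 23 MHC list genes themselves had a median shift of 0.57 in WT1, 0.27 in KO1 and 0.11 in KO2.

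**Figure D5:**
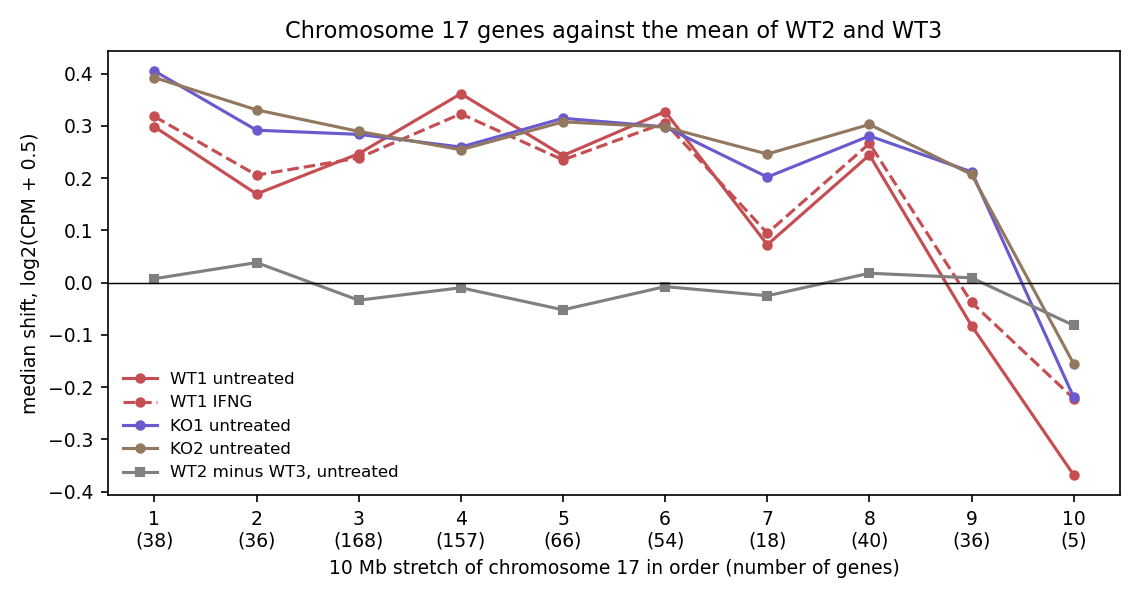
Median shift of chromosome 17 genes against the mean of WT2 and WT3, in consecutive 10 Mb stretches (horizontal, with the number of genes in brackets), for WT1 untreated and IFNG-treated, KO1 and KO2 untreated, and for WT2 minus WT3. WT1 and both KO clones are above 0 in the first 8 stretches, and in the ninth WT1 is at -0.083 while KO1 and KO2 are at 0.21.

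Single genes on chromosome 17 differed by far more than the shared shift. The largest rises were those of Ddah2, which breaks down inhibitors of nitric oxide synthase (log2FC 2.54), Ier3 (1.98), Rasgrp3, an activator of Ras proteins (1.95), Sik1 (1.87) and Pim1 (1.83). Rasgrp3 was at 109, 97.1 and 104 CPM in WT1, 20, 22.4 and 22.6 CPM in WT2 and 33.4, 27.5 and 35.7 CPM in WT3, and was also high in KO1 (66.6 CPM) and KO2 (49.0 CPM). Among genes with at least 5 CPM in WT1 or in both WT2 and WT3 and no overlap between the groups, the largest falls beside Adgre1 were those of Enpp4 (-0.83), Pram1 (-0.62), Zfp36l2 (-0.60) and Camkmt (-0.60), while genes below that level, such as H2-Ob (-2.35), fell further. Trem2, a lipid-sensing receptor of macrophages, was at 193, 169 and 171 CPM against 189.7 to 216 CPM, with groups that overlapped and a log2FC of -0.16 (edgeR adjusted p-value = 0.012, and 0.14 with counts summed per clone).

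The differences recurred in the IFNG-treated libraries, which come from the same clones but are separate libraries. There WT1 differed from WT2 and WT3 in 6588 of 13667 genes (48.2%), 789 of them by at least 2-fold (5.77%). Of the 7344 genes called untreated, 7204 could be tested after IFNG, and 5420 of these were called in the same direction (75.2%), 27 in the opposite direction and 1757 not. Of the 856 called with at least a 2-fold difference, 751 could be tested, 677 were called in the same direction (90.1%) and 1 in the opposite direction. A test of the difference between the treatments called 415 of 14328 genes (2.9%). Chromosome 17 had a shift of 0.25 after IFNG as well, with 514 of 618 genes above 0.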

How the data were processed

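RNA was measured in 30 libraries of polyadenylated RNA from J774A.1 clones, of which the 9 untreated WT libraries entered the main comparison and the 9 IFNG-treated WT libraries its repeat. After trimming (BBDuk) and alignment to mm10 (HISAT2 2.1.0), the authors kept unique alignments and deposited raw counts of fragments per gene from featureCounts 1.6.2. The methods name RefSeq and the file headers Gencode vM18 as annotation. Fragments on overlapping genes were counted for each gene, in reversely stranded mode, which can blur neighbours. The labels mention 200 or 500 ng of RNA and 2 kinds of adapter without assigning them to libraries. Groups came from the sample labels. WT1 columns are named wt1, and those of WT2 and WT3 are named wtc1 and wtc3. WT2 and WT3 were told apart by the single-clone tables that hold the same counts. An exchange of WT2 and WT3 would leave WT1 against both unchanged.

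edgeR 4.0.16 (R 4.3.3) fitted the counts of the 9 libraries as 1 group against 1, after its default filter and TMM scaling, by the quasi-likelihood F test, with a threshold of 0.05 on p-values adjusted over all genes tested. Each SE was the size of the log2FC over √F from that test. CPM used TMM factors over all 30 libraries (14870 genes). WT1 was also compared with WT2 and with WT3 alone, WT2 with WT3, and the clone difference was tested between treatments over 18 libraries. Chromosome shifts used log2(CPM + 0.5) of genes averaging 1 CPM or more. Positions came with the deposited counts and promoters from RefSeq. GENCODE vM21 shared 52480 of the 54146 identifiers, all with the same span. With a repeated symbol, the gene with most counts was used, and 2 of 1226 list entries had no match. Intervals and floors cover counting error only. DESeq2 1.42.0, other normalizations and filters, thinning to 15566122 fragments (seed 11), sums per clone and leaving out libraries were alternatives, and the fits were tested on simulated data. Python 3.11.15, numpy 2.4.6, pandas 2.3.3 and matplotlib 3.10.9 made tables and figures.

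Genes were named by rule: per direction the 12 largest changes (at least 5 CPM, all WT1 libraries outside the others), switched genes, up to 4 members per list with the smallest p, the 5 largest in each direction on chromosome 17 and single genes fixed by name. Marker genes of macrophages were named throughout, and other names were picked after their values were seen. Some genes that these rules selected are not reported here. The members, the gene lists and chromosome 17 were chosen with earlier results of these data known.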

Additional observations from a re-analysis of the deposited data

Results flagged for a closer look

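Among the 157 named genes, each checked in the group of 6 untreated WT2 and WT3 libraries, 7 had 1 library apart from the other 5 by Dixon's test, where chance gives about 1 in 20. The library apart was at 0.252 CPM for Angptl2 and at 0.0428 CPM for Hpse. It was at 86.6 CPM for Mif, below 91.5 to 93.9 CPM, and at 19.1 CPM for Pim3, above 16.3 to 17.2 CPM. Ndrg1 had 1 library at 69.8 CPM against 41.0 to 51.0 CPM, Mmp8 1 at 0.817 CPM against 0.111 to 0.253 CPM and Tyrobp 1 at 285 CPM against 260.2 to 268 CPM. For Angptl2, Hpse, Ndrg1, Mif and Pim3 the WT1 libraries lay outside the range of all 6.

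The clone difference itself changed with IFNG for 18 of the 157 named genes in edgeR's test of the difference between treatments (FDR of 0.05 over 14328 genes, of which 2.9% were called). In 16 of them the difference was nearer to 0 after IFNG and in 2, Hmox1 and Itgav, it was farther from 0. Most named genes were chosen by their untreated difference, so that nothing is read from this direction. The largest changes, given as the untreated log2FC minus the log2FC after IFNG, were those of Acod1 (1.64, from 3.80 to 2.15), Cd40 (1.47, from 1.98 to 0.52) and Pim1 (1.26, from 1.83 to 0.58). Cd40 averaged 19.3, 5.40 and 4.53 CPM in untreated WT1, WT2 and WT3 and 83.6, 59.9 and 55.9 CPM after IFNG. Smaller positive values were found for Sik1 (0.85), Ndrg1 (0.80), Ier3 (0.74), Atf3 (0.70), Itgav (0.68), Vwf (0.63), Il15 (0.57), Tmem173 (0.50), Hk2 (0.48), Il10ra (0.43) and B2m (0.21). Negative values were found for Gja1 (-0.59), Rtp4 (-0.50), Neurl3 (-0.42) and Hmox1 (-0.30).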

How the results depend on the processing

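With DESeq2, RLE normalization, no filter, at least 10 counts in every library, TMM factors without chromosome 17 genes, clone means, or libraries thinned to 15566122 fragments, the number of genes called in untreated WT1 against WT2 and WT3 was 6650 to 8172, beside 7344. When the counts of a clone were added up it was 3118, and 2627 after IFNG beside 6588, with 375 beside 664 in the gene lists, where 3 values replace 9 libraries. A limit of 2-fold, added after the data were seen, left 856. Leaving out each library in turn gave 6492 to 7148 untreated and 5455 to 6529 after IFNG, 6007 to 7275 against WT2, 5945 to 7106 against WT3 and 600 to 660 in the lists. The chromosome 17 shift of 0.25 was 0.26 over genes of at least 5 CPM, 0.217 as a mean, 0.24 without the MHC lists, 0.237 to 0.252 with a library left out, 0.269 for genes before 80 Mb and, reversed, -0.15 for those after it. Of 157 named genes, 141 kept their side of the threshold in every alternative run for them, which was 18 for 140 genes and 1 fewer for the 17 below 10 counts in some library, and 0 reversed. With counts added up per clone 13 were lost, namely Hsp90ab1, Mtf1, Ttc7, Ighm, Il1rl1, Vwf, Egfl7, Pecam1, Trem2, Dicer1, Cd68, Cd14 and Mpeg1. Those that moved in other alternatives were Lck, Ighm, Cebpe, Egfl7, Pecam1, Trem2, Cd14 and Tyrobp. No paired analysis was possible because the columns carry no replicate numbers, so the replicate block was not run. Depth limits single genes below about 1 CPM.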
